A study of Mus musculus with 6 samples.

Results

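The 9 genes described here encode proteases that act outside cells, a receptor for 1 of them, and protease inhibitors. They are the urokinase plasminogen activator Plau and its receptor Plaur, and the mostly intracellular serine protease inhibitors Serpinb2 and Serpina3g. The others are the matrix metalloproteases Mmp8, Mmp9 and Mmp25, and the metalloprotease inhibitors Timp1 and Timp2. All were picked by symbol, with earlier results of these data known, as 9 of the 22548 gene symbols quantified. All 9 were measured. The series recorded RNA from eosinophils grown out of mouse bone marrow. Cells were left untreated or stimulated with IL-4 or with IL-33, and were collected after 1 h or 4 h, which makes 6 groups of 1 library. The comparisons ask how either cytokine moved gene expression at each time.

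All 6 groups came from wild-type BALB/c mice aged 4 to 8 weeks. Low-density marrow cells were cultured for 14 days, until day 4 with FLT3 ligand and stem cell factor (100 ng/ml of each), and then with IL-5 at 10 ng/ml, so the untreated cells had also been grown in IL-5. IL-4 or IL-33 was given at 10 ng/ml. The labels do not say how many mice went into a library.

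Urokinase, the protein made from Plau, is a secreted serine protease that cuts plasminogen into plasmin, and its receptor, a glycolipid-anchored surface protein made from Plaur, holds that reaction at the cell membrane. Plasmin digests fibrin and can activate some matrix metalloproteases, which are zinc enzymes that cut collagens and other matrix proteins. Serpins trap serine proteases by an irreversible change of shape, with plasminogen activator inhibitor type 2 (Serpinb2) acting on urokinase, and TIMP proteins block the active site of metalloproteases. In granulocytes several of these enzymes are stored in granules or sit on the cell surface and are known for roles in migration through tissue.

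Levels are given in FPKM, fragment numbers divided by the length of the transcript and the size of the library, which can be compared between genes because it is per length. A change is log2((treated FPKM + 1) / (control FPKM + 1)), and the added 1 shrinks the changes of genes with low levels. A gene is called higher or lower where this change reached 1 in size and the gene had at least 1 FPKM in one of the libraries compared. With 1 library per group no test between conditions was possible, and no difference below has a replicate check. Each deposited table holds 1 treated library and its control, and the same control library was scaled to 0.945 (1 h) and 0.947 (4 h) times its IL-4 table values in the IL-33 tables, so each change was taken against the control values deposited beside the treated library. Levels are printed as deposited, and where all 6 libraries are put in order or into a ratio, the IL-33 values were first divided by those factors. Untreated levels given outside a comparison come from the IL-4 tables. Read numbers and 95% intervals of fold ratios come from an estimate of what 1 read is worth in each column and cover counting error only.

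By these estimates, a treated library was sequenced to a multiple of its control's depth that was 0.985 for IL-4 at 1 h, 1.17 for IL-33 at 1 h, 1.24 for IL-4 at 4 h and 1.89 for IL-33 at 4 h. All 13 measured eosinophil markers, among them the granule proteins, reached 1 FPKM in each library and summed, as deposited, to between 62358 and 77462 FPKM. Neutrophil markers were present too, 17 of 17 in each library, with sums from 6990 to 9451 FPKM, as were 16 or 17 of 18 monocyte and macrophage markers, with sums from 2955 to 4433 FPKM. Mast cell and basophil markers summed to between 508 and 561 FPKM, erythroid and megakaryocyte markers to between 277 and 315 FPKM, stromal and endothelial markers to between 107 and 149 FPKM, and lymphoid markers to between 23.5 and 32.0 FPKM. Cardiac muscle transcripts stood apart by time, at 117 to 163 FPKM summed in the 1 h libraries and 1.58 to 2.52 FPKM in the 4 h libraries. In such bulk samples, fewer cells of a type and less RNA per cell cannot be told apart.

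Among the 9 genes, Serpinb2 had the highest level in untreated cells, ranking 140 of all 22548 symbols at 1 h and 263 at 4 h. Plaur followed at rank 537 and Mmp8 at rank 794 in the 1 h control. Mmp25, Mmp9 and Timp2 lay between 42.1 and 55.1 FPKM there, and Plau, Serpina3g and Timp1 were at 14.7, 5.24 and 1.74 FPKM. At 4 h Mmp9 stood above Mmp25, and Plau (35.5 FPKM) lay beside Timp2 (36.3 FPKM). The spread between cultures behind this order was not measured. Across the 6 libraries the ratio of the highest to the lowest level was 12.4 for Serpina3g and 6.12 for Serpinb2, and it ran from 1.25 for Plaur to 3.02 for Timp1 for the others.

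**Figure D1:**
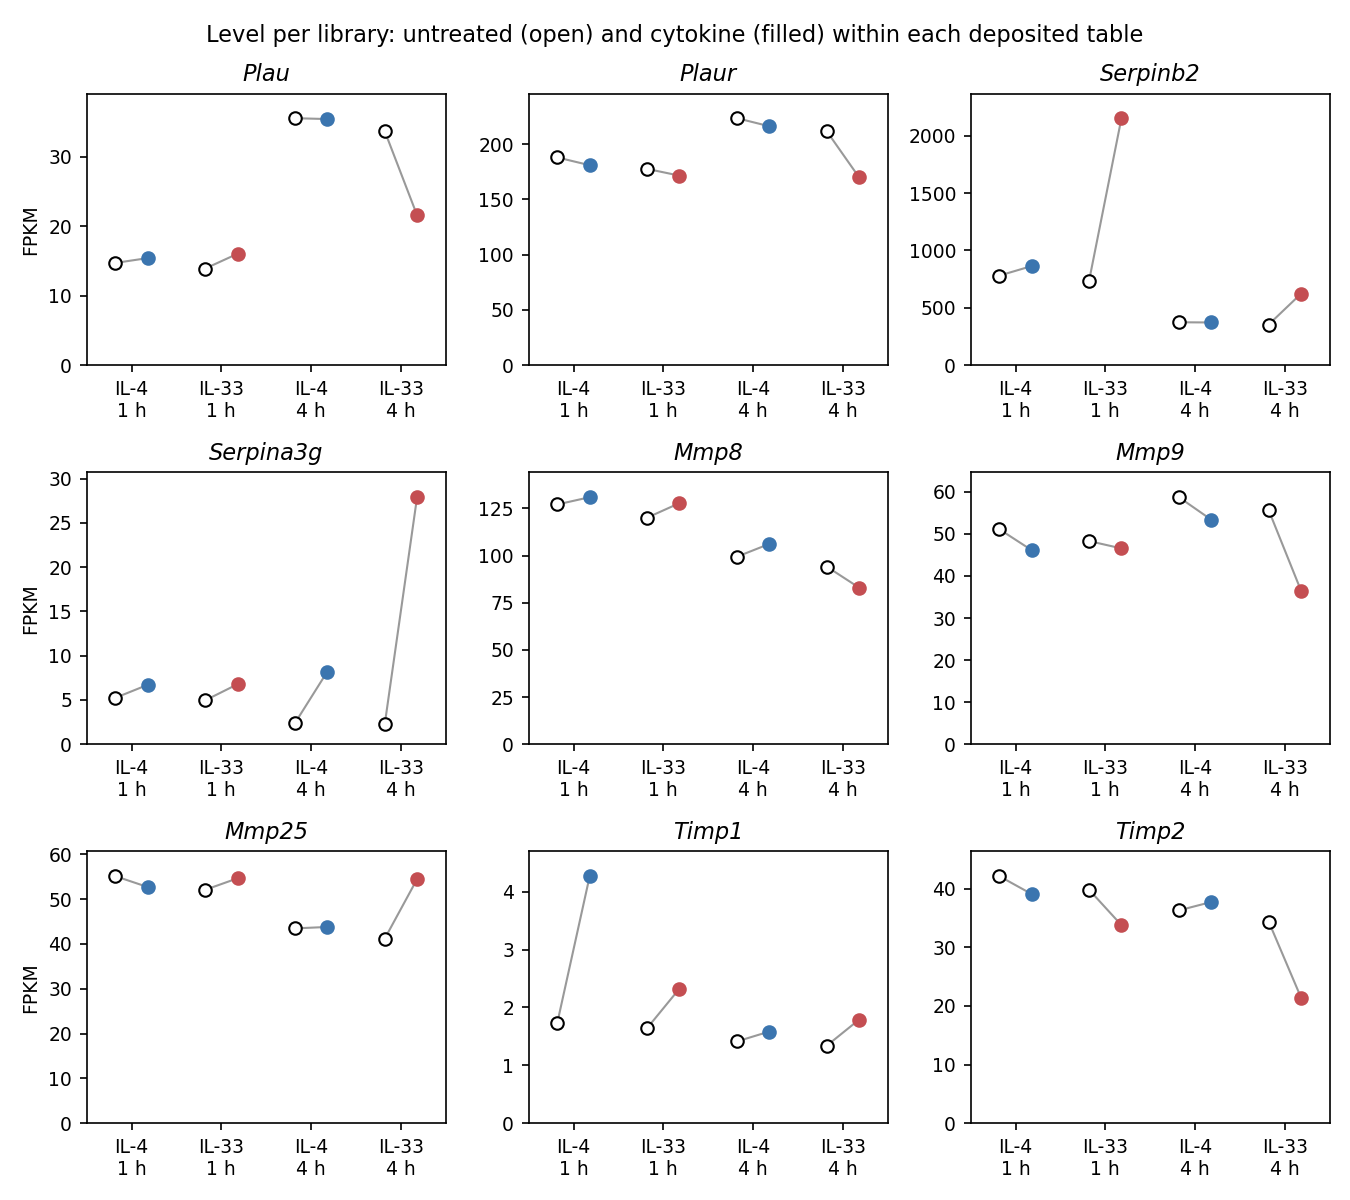
Level of each of the 9 genes in FPKM, with the untreated library (open) joined to the cytokine library (filled, blue for IL-4 and red for IL-33) within each of the 4 tables, 1 library per point and no error bars, on axes that start at 0 and differ between genes. Serpinb2 stands at 2153 FPKM with IL-33 at 1 h and Serpina3g at 27.9 FPKM with IL-33 at 4 h, and each untreated library appears in 2 tables at slightly different scale.

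Serpinb2 and Serpina3g were the members called higher after IL-33, Serpinb2 at 1 h and Serpina3g at 4 h, and Serpina3g was also higher after IL-4 at 4 h. At 1 h of IL-33, 1 of 9 members was higher and none was lower, where 2.36% of the 10616 genes compared were higher and 0.669% lower. At 4 h of IL-33 it was 1 of 9 higher and none lower, where 4.15% of 10803 genes were higher and 1.38% lower. For IL-4 the count was 0 of 9 in either direction at 1 h, where 0.47% of 10628 genes were higher and 0.358% lower. At 4 h of IL-4 it was 1 of 9 higher and none lower, where 0.646% of 10833 genes were higher and 0.351% lower. The median change of the 9 genes was 0.04 (IL-4, 1 h), 0.01 (IL-4, 4 h), 0.09 (IL-33, 1 h) and -0.18 (IL-33, 4 h), against -0.02, 0.02, -0.01 and -0.03 for all genes compared. The median size of the change, whatever its sign, was 0.11, 0.05, 0.19 and 0.59 for the 9 genes in the same order, and 0.06, 0.08, 0.13 and 0.24 for all genes compared. Because the 9 genes were chosen with earlier results of these data known, these counts and medians are description only.

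**Figure D2:**
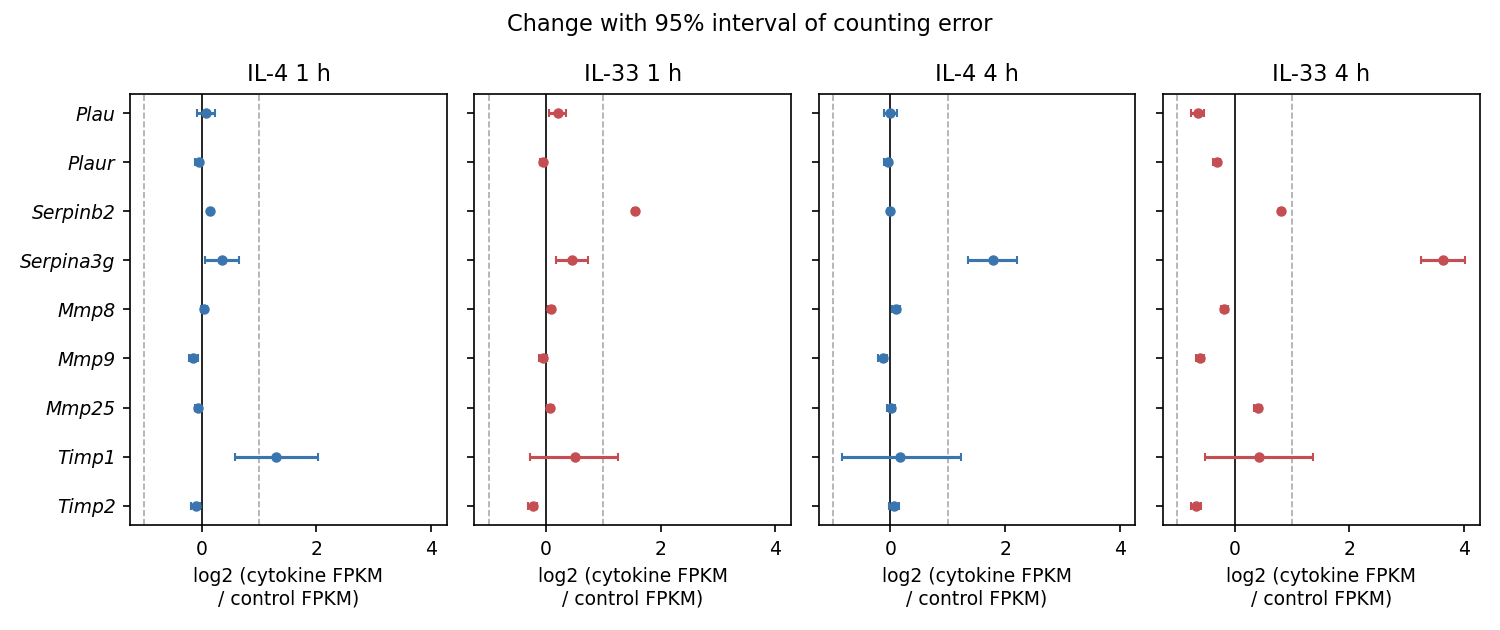
Plain log2 ratio of cytokine FPKM to control FPKM, without the added 1, for each of the 9 genes in the 4 comparisons with a control, with bars for the 95% interval of counting error and dashed lines at 1 and -1 on that scale. Serpina3g stands at 3.63 with IL-33 and 1.78 with IL-4 at 4 h and Serpinb2 at 1.55 with IL-33 at 1 h, while Timp1, beyond the line only on this scale with IL-4 at 1 h, has the widest bars.

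Plau, the urokinase gene (chromosome 14, 21655884 to 21662610 in build mm9), was at 14.7 FPKM in the 1 h control, 15.4 FPKM with IL-4 and 16.0 FPKM with IL-33. At 4 h it was at 35.5 FPKM in the control, 35.4 FPKM with IL-4 and 21.6 FPKM with IL-33. All 3 libraries of 4 h were thus above all 3 of 1 h, and the IL-33 library was the lowest of its time. Against the IL-33 table's control (33.7 FPKM), IL-33 at 4 h gave a change of -0.62, which did not reach the rule of size. The fold was 0.641, with a counting interval of 0.593 to 0.693 from an estimated 1170 control and 1414 treated reads. With IL-4 the changes were 0.06 at 1 h and 0.00 at 4 h. Plau was higher in the 4 h control than in the 1 h control, by 1.22 on the log2 scale, a fold of 2.42 (counting interval 2.19 to 2.66). The monocyte and macrophage markers summed to 3104 FPKM in the 4 h control and 4412 FPKM at 1 h. Within these sums Ly6c1 was at 667 FPKM at 4 h and 1238 FPKM at 1 h, and Ly6c2 at 908 and 1700 FPKM. The median change over the 17 genes compared was 0.14. Of these, 1 was higher and none lower, where 0.879% of 10813 genes were higher and 1.56% lower.

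Plaur (chromosome 7, 25247519 to 25260892) encodes the receptor that binds urokinase at the surface. It was at 188 FPKM in the 1 h control, 181 FPKM with IL-4 and 171 FPKM with IL-33. The 4 h values were 223 FPKM in the control, 216 FPKM with IL-4 and 170 FPKM with IL-33. Of the 4 h libraries the one with IL-33 was the lowest, at the level of the 1 h libraries, and the 6 lay within 1.25-fold of each other. Against its table's control at 4 h (212 FPKM), IL-33 gave a change of -0.31 and a fold of 0.803 (counting interval 0.773 to 0.834), and the other 3 changes all came to -0.05. Plaur was far above its ligand in every library, at 12.8 times the level of Plau in the 1 h control and 6.28 times in the 4 h control.

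Serpinb2 (chromosome 1, 109408000 to 109422177) encodes plasminogen activator inhibitor type 2, a mostly intracellular serpin that inhibits urokinase. It was at 781 FPKM in the 1 h control, 864 FPKM with IL-4 and 2153 FPKM with IL-33. Its 4 h levels were 374 FPKM in the control, 372 FPKM with IL-4 and 623 FPKM with IL-33. IL-33 gave the highest library at each time, and every library of 4 h was below every library of 1 h. Against the IL-33 table's 1 h control (738 FPKM), the change at 1 h was 1.54 and the fold 2.92 (counting interval 2.88 to 2.95), from an estimated 28752 control and 97323 treated reads. At 4 h, against 354 FPKM, the change was 0.81 and the fold 1.76 (counting interval 1.72 to 1.80), short of the rule of size. The change with IL-4 was 0.15 at 1 h and -0.01 at 4 h.

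Untreated cells of 4 h had less Serpinb2 than those of 1 h. This comparison, between control columns of different tables, called 1 of 9 members lower (Serpinb2, -1.06) and 1 higher (Plau), where 1.56% of 10813 genes were lower and 0.879% higher. The median change of the 9 genes there was -0.21, against 0.10 for all genes. Of 14 cardiac muscle transcripts, 11 were compared and all 11 were lower at 4 h, with a median change of -3.87. None of them reached 1 FPKM in the 4 h control, so they passed the filter through the 1 h control alone, which favours lower values. The part of these transcripts in the differences between times was not tested. The direction of the Serpinb2 value for IL-33 at 4 h depended on which control it was set against, being -0.24 against the 1 h control.

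The change of Serpinb2 with IL-33 was unequal between its 2 RefSeq transcripts. At 1 h NM_001174170 went from 458 FPKM in the control to 1561 FPKM with IL-33, and NM_011111 went from 279 to 592 FPKM. The changes were 1.77 and 1.08, so the share of NM_001174170 in the gene's FPKM was 62.2% in the control and 72.5% with IL-33. At 4 h the share was 54.3% in the control, 58.6% with IL-4 and 63.3% with IL-33, with changes for IL-33 of 1.03 and 0.50. The split of reads between transcripts is the quantifier's estimate, for which no error was given per transcript in the values used. With NM_001174170 alone, Serpinb2 would pass the rule of size at 4 h as well.

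**Figure D3:**
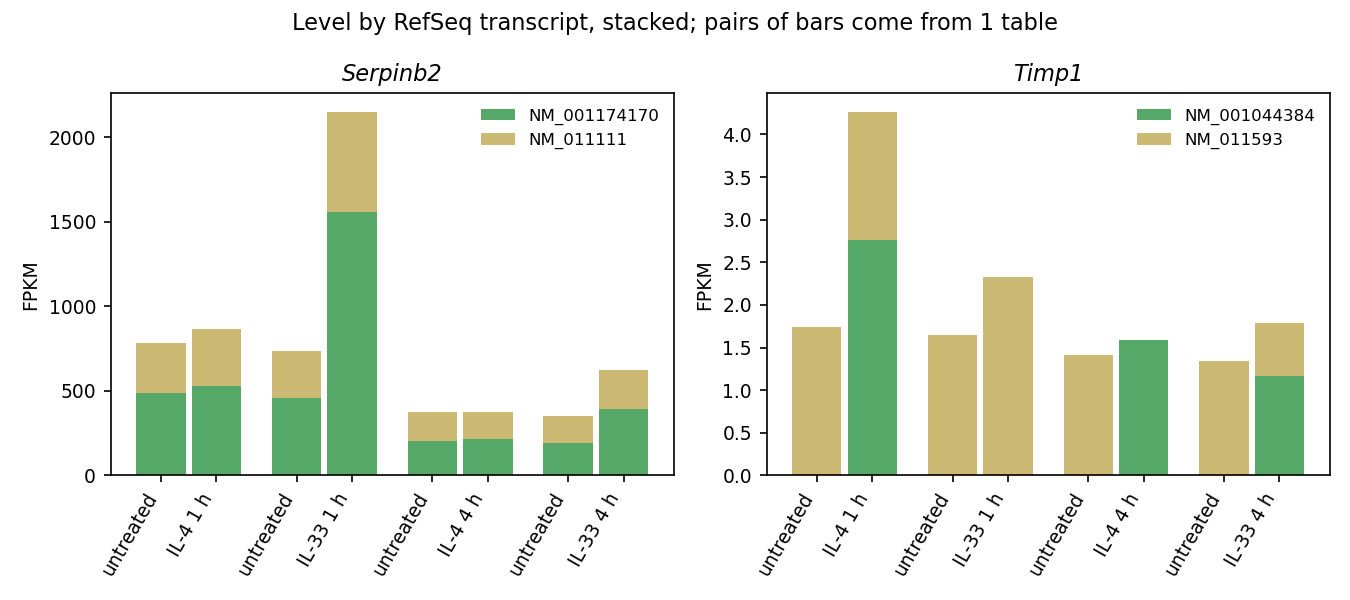
Level in FPKM of the RefSeq transcripts of Serpinb2 and Timp1 as stacked bars, each pair of bars being the untreated and the treated column of 1 table, without error bars because each bar is 1 library. Both Serpinb2 segments are taller with IL-33 than in the untreated bar beside it, whereas the Timp1 segments trade places between libraries at levels below 3 FPKM.

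Serpina3g (chromosome 12, 105452754 to 105480144) encodes an intracellular inhibitor of cysteine cathepsins as well as serine proteases. It was at 5.24 FPKM in the 1 h control, 6.71 FPKM with IL-4 and 6.77 FPKM with IL-33. At 4 h it was at 2.38 FPKM in the control, 8.19 FPKM with IL-4 and 27.9 FPKM with IL-33. At 1 h the 3 libraries lay close together, and at 4 h they were ordered control, IL-4, IL-33 with wide gaps. Against the IL-33 table's 4 h control (2.26 FPKM) the change was 3.15 and the fold 12.4 (counting interval 9.48 to 16.3), from an estimated 59 control and 1369 treated reads. IL-4 at 4 h gave a change of 1.44 and a fold of 3.44 (counting interval 2.57 to 4.63), with 250 treated reads. The changes at 1 h were 0.39 with IL-33 and 0.30 with IL-4, and both folds, 1.37 (1.13 to 1.66) and 1.28 (1.04 to 1.57), had counting intervals above 1.

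The 4 h control was the lowest of the 6 libraries for Serpina3g, with a change of -0.88 from the 1 h control. Set against the 1 h control instead, IL-4 at 4 h gave 0.56 and was no longer higher, while IL-33 at 4 h gave 2.28. Serpina3g lies in a cluster of closely similar serpin genes, and its locus in the tables overlaps that of Serpina3f, so reads may be divided among copies and its separate level is uncertain. Its neighbours Serpina3f (0.295 FPKM in the 4 h control and 2.95 FPKM with IL-33) and Serpina3h (0.141 and 2.85 FPKM) rose by 1.61 and 1.75. They were the only other members of the cluster with 1 FPKM in that comparison, where 4.15% of all genes were higher. Both reached 1 FPKM only in the IL-33 library, so the filter itself favoured a higher value, and they are no separate support for Serpina3g. In the other 3 comparisons no other cluster member reached 1 FPKM.

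The 250 bases before the annotated start of the 2 serpins called higher, and of Plaur, are printed because they hold exact matches to the motifs searched. They are from RefSeq on build GRCm38.p6, which is not the build of the tables, and the capitals mark the match.
Serpinb2, chr1:107511173-107511422, plus strand, before the start of NM_001174170: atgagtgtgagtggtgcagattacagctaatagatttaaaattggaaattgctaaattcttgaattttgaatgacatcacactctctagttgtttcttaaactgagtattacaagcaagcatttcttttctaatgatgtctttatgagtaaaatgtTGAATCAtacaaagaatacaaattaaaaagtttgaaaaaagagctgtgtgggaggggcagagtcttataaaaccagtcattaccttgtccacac
Serpina3g, chr12:104235897-104236146, plus strand: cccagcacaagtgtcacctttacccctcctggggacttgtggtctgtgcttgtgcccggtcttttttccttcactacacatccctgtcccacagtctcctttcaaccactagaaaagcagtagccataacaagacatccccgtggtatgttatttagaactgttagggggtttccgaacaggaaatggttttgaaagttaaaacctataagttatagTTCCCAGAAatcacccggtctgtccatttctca
Plaur, chr7:24462233-24462482, plus strand: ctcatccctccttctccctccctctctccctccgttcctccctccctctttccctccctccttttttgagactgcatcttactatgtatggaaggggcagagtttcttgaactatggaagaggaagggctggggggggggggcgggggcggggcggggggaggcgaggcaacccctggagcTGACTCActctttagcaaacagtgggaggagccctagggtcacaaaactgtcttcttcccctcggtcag

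The Serpinb2 stretch holds a match to the AP-1 motif TGANTCA whose first base is at position -94 from that start, and Plaur holds one at position -69. Serpina3g holds a match to TTCNNNGAA, the spaced palindrome of STAT5 and STAT3, at position -33 from a start at base 104236147. The annotated transcript matched to its RefSeq entry NM_009251 starts further downstream, at base 104236252. The window before the other start of Serpinb2 holds another TTCNNNGAA match at position -77. Both strands were searched, the same Serpinb2 AP-1 match also lies in that overlapping window, and windows were matched for 7 of the 9 members, not for Mmp9 and Plau. Over all 32851 windows of this length, TGANTCA occurred in 6.75% and TTCNNNGAA in 7.02%. The kappa B motif in 2 spellings (1.21% and 0.323% of all windows) and the STAT6 palindrome, which has 4 bases between its arms (5.85%), had no match in the 8 windows of the 7 members. Mmp8, Mmp25, Timp1 and Timp2 had no match to any of the 5 spellings. A match is a run of letters and was not tested for binding.

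Mmp8 (chromosome 9, 7558429 to 7568486) encodes neutrophil collagenase, which cuts fibrillar collagens. It was at 127 FPKM in the 1 h control, 131 FPKM with IL-4 and 128 FPKM with IL-33. By 4 h its level was 99.4 FPKM in the control, 106 FPKM with IL-4 and 83.0 FPKM with IL-33. The 3 libraries of 4 h were below the 3 of 1 h, and the IL-33 library of 4 h was the lowest. None of the 4 changes exceeded 0.18 in size. IL-33 at 4 h gave -0.18 against 94.1 FPKM, a fold of 0.882 (counting interval 0.845 to 0.920).

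Mmp9 (chromosome 2, 164773751 to 164781346) encodes gelatinase B, which digests denatured and basement membrane collagen. It was at 51.1 FPKM in the 1 h control, 46.1 FPKM with IL-4 and 46.6 FPKM with IL-33. At 4 h it was at 58.7 FPKM in the control, 53.4 FPKM with IL-4 and 36.5 FPKM with IL-33. Both controls were above the treated libraries of their time, and IL-33 at 4 h was the lowest of the 6. That library gave a change of -0.59 against 55.6 FPKM and a fold of 0.656 (counting interval 0.624 to 0.691), and the other 3 changes lay between -0.15 and -0.05.

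Mmp25 (chromosome 17, 23766425 to 23782236) encodes a metalloprotease tethered to the membrane by a glycolipid anchor and known from leukocytes. It was at 55.1 FPKM in the 1 h control, 52.7 FPKM with IL-4 and 54.6 FPKM with IL-33. The levels at 4 h were 43.5 FPKM in the control, 43.8 FPKM with IL-4 and 54.4 FPKM with IL-33. The 2 other libraries of 4 h were the lowest of the 6, and the IL-33 library of 4 h lay at the level of the 1 h libraries. IL-33 at 4 h gave a change of 0.39 against 41.2 FPKM and a fold of 1.32 (counting interval 1.27 to 1.38), opposite in sign to Mmp8 and Mmp9. None of these 3 metalloproteases reached the rule of size in any comparison with a control. The neutrophil markers, which share these transcripts' known cell type, summed to 6990 FPKM with IL-33 at 4 h and 8953 FPKM in its control, with a median change of -0.35 over 17 genes. 2 of the 17 were higher and 1 lower, where 4.15% of 10803 genes were higher and 1.38% lower. The part of such cells in the metalloprotease values was not tested.

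Timp1 (chromosome X, 20425669 to 20498044, a span that also holds Araf and Syn1) encodes a secreted inhibitor of most metalloproteases. It was at 1.74 FPKM in the 1 h control, 4.27 FPKM with IL-4 and 2.33 FPKM with IL-33. Its levels at 4 h were 1.41 FPKM in the control, 1.58 FPKM with IL-4 and 1.79 FPKM with IL-33. The IL-4 library of 1 h stood above the other 5. Its change was 0.94, just under the rule of size, and its fold was 2.45 (counting interval 1.50 to 4.05) from an estimated 25 control and 59 treated reads. The folds at 4 h, 1.12 (0.556 to 2.36) with IL-4 and 1.34 (0.701 to 2.57) with IL-33, and that of IL-33 at 1 h, 1.42 (0.823 to 2.39), had counting intervals that include 1, so no difference was detectable at this depth. The 2 Timp1 transcripts were split unevenly between libraries, NM_001044384 being at 0.00366 FPKM in the 1 h control and 2.76 FPKM with IL-4, so Timp1 is read here from the sum of both.

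In the same IL-4 library of 1 h, 3 of the 8 stromal and endothelial markers compared were higher, where 0.47% of 10628 genes were. The median change of the 8 was 0.43. Col1a1 was at 0.443 FPKM in the control and 2.93 FPKM with IL-4, Col1a2 at 0.921 and 3.20 FPKM, and Sparc at 1.31 and 4.08 FPKM. Col3a1 was short of the rule at 0.89, while Dcn (-0.18), Pdgfrb (-0.08), Acta2 (-0.05) and Pecam1 (-0.03) were below the control. At 1 h, with IL-4 and with IL-33 alike, Col1a1, Col1a2 and Col3a1 reached 1 FPKM only in the treated library. The filter thus favoured higher values for these genes, and the count and medians of this list are description only. The list summed to 107 FPKM in the control and 113 FPKM with IL-4, with Lum listed at 0. With IL-33 at 1 h, where Timp1 was at 0.33, none of the 8 was higher and the median change was 0.56, with Col1a1 at 0.87 and Col1a2 at 0.83. Fibroblasts and other stromal cells are known to make Timp1, and their part in its value was not tested.

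Timp2 (chromosome 11, 118162375 to 118216725) encodes an inhibitor that also takes part in the activation of pro-MMP2 at the cell surface. It was at 42.1 FPKM in the 1 h control, 39.1 FPKM with IL-4 and 33.8 FPKM with IL-33. At 4 h it was at 36.3 FPKM in the control, 37.7 FPKM with IL-4 and 21.4 FPKM with IL-33. The IL-33 library was the lowest at each time. The changes with IL-33 were -0.23 at 1 h (fold 0.849, counting interval 0.807 to 0.892) and -0.66 at 4 h (fold 0.623, 0.586 to 0.662), and with IL-4 they were -0.11 and 0.05. Timp2 exceeded Timp1 in each library, by 24.2-fold in the 1 h control and 25.7-fold in the 4 h control. The locus of Timp2 in the tables also holds BC100451.

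At 4 h of IL-33, 5 of the 9 members had values below the control without reaching the rule of size, and these were Plau, Plaur, Mmp8, Mmp9 and Timp2. Of all 10803 genes compared, 53.5% were below the control, so the members' count is near the general share. Their folds ran from 0.623 (Timp2) to 0.882 (Mmp8), and all 5 counting intervals lay below 1. That library was sequenced 1.89 times as deep as its control, and FPKM takes depth into account. The summed eosinophil markers were at 62358 FPKM there and 66443 FPKM in its control, with a median change of -0.14 over 13 genes. The summed monocyte and macrophage markers were at 3682 and 2941 FPKM. Of 17 compared, Cd14, Csf1r and Mrc1 were higher and none lower, where 4.15% of 10803 genes were higher and 1.38% lower. The median change of the 17 was -0.08.

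The 2 cytokines were set against each other by the difference of their changes. Both changes use the same control library, which cancels apart from its scale in the 2 tables and the added 1. Each difference thus compares 1 IL-33 library with 1 IL-4 library. At 1 h Serpinb2 was higher with IL-33 than under IL-4, by 1.398, as 1 of 9 members, where 2.34% of 10748 genes were higher. At 4 h Serpina3g was higher with IL-33, by 1.71, again 1 of 9, where 3.66% of 10976 genes were higher. No member was lower in this comparison at 1 h (0.661% of genes) or at 4 h (1.07%). Short of the rule, Timp2 differed by -0.71, Plau by -0.61 and Mmp9 by -0.46 at 4 h, while Serpinb2 differed by 0.82. Timp1 at 1 h differed by -0.61.

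Between times, the change of Serpina3g was larger at 4 h than at 1 h with both cytokines. For IL-33 the difference of the changes was 2.77, as 1 of 9 members, where 2.77% of 11015 genes were higher by this rule. For IL-4 it was 1.14, again 1 of 9, where 0.79% of 11016 genes were higher. No member's change was lower by this rule at 4 h than at 1 h for IL-33 (1.84% of genes) or for IL-4 (0.626%). The change of Serpinb2 with IL-33 was smaller at 4 h, by -0.73, and Plau went from 0.19 to -0.62, a difference of -0.81.

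The wider plasminogen and coagulation system was read from a list of genes outside the 9. Of its members, 13 were compared for IL-33 at each time, with 1 higher and 1 lower at 1 h and 1 higher and none lower at 4 h. Of all genes compared with IL-33, 2.36% were higher and 0.669% lower at 1 h, and 4.15% and 1.38% at 4 h. F2r, the thrombin receptor PAR1, was at 78.1 FPKM in the control and 166 FPKM with IL-33 at 1 h and at 26.2 and 61.3 FPKM at 4 h, changes of 1.08 and 1.19. Thbd, thrombomodulin, was lower at 1 h, at 5.10 FPKM in the control and 1.96 FPKM with IL-33. With IL-4 none of the 13 genes compared at each time passed the rule.

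Among other metalloprotease genes, none of 5 MMPs compared passed the rule in any of the 4 comparisons with a control. With IL-33, 2.36% (1 h) and 4.15% (4 h) of all genes compared were higher. Of 8 ADAM and ADAMTS genes, 1 was higher with IL-33 at each time and none with IL-4. This was Adam17, which encodes the sheddase that releases TNF and other membrane proteins and is inhibited by TIMP3, at 26.4 and 71.1 FPKM at 1 h and 24.8 and 87.5 FPKM at 4 h. Among metalloprotease inhibitors and partners, 1 of 7 (1 h) and 1 of 6 (4 h) was higher with IL-33, and none with IL-4. It was Thbs1, thrombospondin 1, a matrix protein that binds several of these proteases, at 205 and 649 FPKM at 1 h and 71.6 and 158 FPKM at 4 h.

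Outside the A3 cluster, none of the 6 or 7 other clade B serpins and none of the 2 or 3 serpins of other clades compared passed the rule in any comparison with a control. Of the granulocyte serine proteases and their inhibitors, Gzma, granzyme A, was the 1 gene past it, with IL-4 at 4 h (2.19 and 6.36 FPKM). That was 1 of 9 compared, where 0.646% of all genes were higher. Of 20 cathepsins and cystatins, 2 were higher with IL-33 at 4 h, against 4.15% of all genes compared. They were Cst7, cystatin F, a lysosomal inhibitor of cathepsins, at 39.6 and 90.8 FPKM, and Ctsz, the carboxypeptidase cathepsin Z, at 131 and 324 FPKM. Of 12 surface partners of the urokinase receptor, 3 were higher in that library, against the same 4.15% of all genes, and none in the other 3 comparisons. They were the formyl peptide receptor Fpr1 (8.37 and 30.4 FPKM) and the integrin chains Itga5 (6.44 and 16.1 FPKM) and Itgb1 (64.5 and 145 FPKM), beside Plaur at 212 and 170 FPKM.

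**Figure D4:**
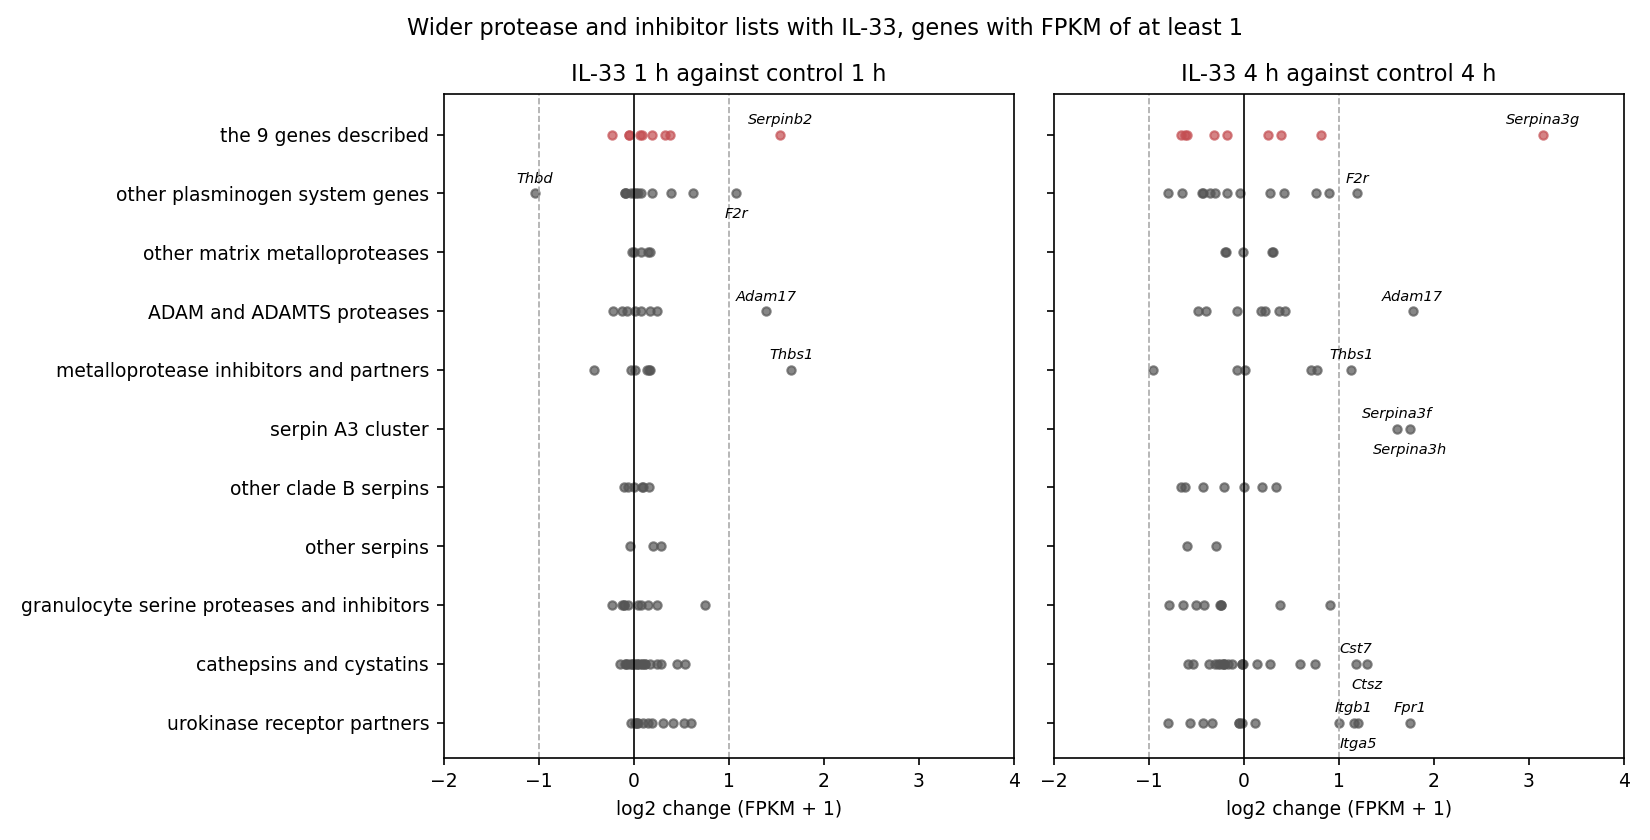
Change with IL-33 at 1 h and 4 h, as log2((FPKM + 1) / (control FPKM + 1)), of each gene compared in the wider protease, inhibitor and receptor lists, 1 point per gene, with the 9 genes in red and dashed lines at a change of 1 in either direction. Serpina3g lies farthest to the right at 4 h (3.15), Adam17 lies beyond the line at both times (1.397 and 1.78), and Thbd is the 1 gene beyond the line on the left, at 1 h.

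For scale, known targets of NF-kB, the factor that IL-33 signalling activates, were higher for 19 of 22 genes with IL-33 at 1 h and 20 of 22 at 4 h, and for none of those compared with IL-4. Known targets of STAT6, the factor that the IL-4 receptor activates, were higher for 4 of 16 genes with IL-4 at 1 h and 9 of 17 at 4 h. With IL-33 they were higher for 4 of 17 genes at 1 h and 12 of 17 at 4 h. Of all genes compared, 2.36% (1 h) and 4.15% (4 h) were higher with IL-33, and 0.47% and 0.646% with IL-4. By the same rule Serpinb2 was higher with IL-33 at 1 h and not with IL-4, and Serpina3g with both cytokines at 4 h. The part of either factor in the 2 serpin values was not tested.

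The genes whose 4 changes lay nearest to those of Serpinb2, by Euclidean distance over the 4 comparisons and among 7466 candidates, were Ppp1r15a (0.133), Nfkbib (0.214) and Mapk6 (0.215). Ppp1r15a encodes a regulator of the phosphatase acting on translation factor eIF2, Nfkbib an inhibitor of NF-kB, and Mapk6 an atypical MAP kinase. For Serpina3g the nearest were Siglece (0.812), an inhibitory sialic acid receptor, Egr2 (1.07), a zinc finger transcription factor, and Itsn1 (1.07), an endocytic scaffold. The neighbours of Serpina3g were thus less close than those of Serpinb2, and Siglece was at 2.57 FPKM in the 4 h control and 27.3 FPKM with IL-33.

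In the authors' deposited table of genes marked as significant in any comparison, 3 of the 9 members were listed, where it holds 7.04% of the 22548 symbols. That share counts symbols with little or no signal, since 10458 of them reached 1 FPKM in the 1 h control. All 9 members reached 1 FPKM in every library, so the 2 shares are not over like genes. The authors' deposited table marks Serpinb2 for IL-33 at both times (log2 fold changes 1.55 and 0.81) and for IL-4 at 1 h (0.15). For Serpina3g the authors' deposited table marks IL-33 (3.63) and IL-4 (1.78) at 4 h, without the added 1 that shrinks the values above. Mmp9 is marked in the authors' deposited table for IL-4 at 1 h alone, at -0.15. Those marks rest on a test of the reads of 2 libraries, which compares the libraries and not the conditions.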

How the data were processed

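The 6 libraries were single-read Illumina RNA libraries, compared by the group that the labels give. Per the submitters' processing notes, TopHat 1.4.1, Cuffdiff 1.2.1 and build mm9 were used. Not given in the sources used here were trimming and the RefSeq release. The values used are FPKM per RefSeq transcript, deposited by the authors for 28702 transcripts in 4 tables that were scaled separately. The deposited p-values and q-values compare the reads of 1 library with those of another and were not used. A deposited list holds log2 fold changes by the authors with marks of significance.

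Values per transcript, not per gene as the design had assumed, were summed by symbol, and where a symbol had several loci only the one with most FPKM was kept (Python 3.11.15, numpy 2.4.6, pandas 2.3.3, scipy 1.17.1). Genes with FPKM of at least 1 in 1 of the libraries compared were read on the log2(FPKM + 1) scale, with no test. Reads per gene were estimated from the steps of low FPKM values, of which 64.5% to 66.9% lay within 0.1 of a whole read (20% if spread evenly). These estimates and their 95% exact binomial intervals were added after the data were seen. PCR duplicates are not removed by them. The scripts were tested on simulated data.

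The 9 members and the 20 gene lists were chosen with earlier results of these data known, and 1 gene that a list would hold is not reported here. Beyond the members, the text draws names from list genes past the rule of size that reached 5 FPKM in either library, at most 6 per list and comparison, and from the 3 genes nearest to each member past the rule. Serpina3f and Serpina3h, marker genes and the factor target lists fall outside that rule or are given by count. The alternatives were a pseudocount of 0.1, no filter, a filter of 5 FPKM, the highest transcript only, a median ratio of 0, the control of the other time, the IL-33 tables' controls, and, added after the data were seen, small RNA genes left out.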

Additional observations from a re-analysis of the deposited data

Results flagged for a closer look

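A few members had values of opposite sign between times or between cytokines, with both counting intervals on their own side of no change. With 1 library per group the differences were not tested, and none of these values reached the rule of size. Plau was at 0.19 with IL-33 at 1 h and -0.62 at 4 h. Mmp8 was at 0.0891 with IL-33 at 1 h and -0.18 at 4 h, and IL-4 at 4 h gave 0.0942. Mmp25 was at -0.0636 with IL-4 and 0.0681 with IL-33 at 1 h. The upper end of its counting interval with IL-4 was -0.00666 on the log2 scale. Genes of at least 10 FPKM had a median log2 ratio of -0.0246 in that comparison, an offset that the interval does not allow for.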

How the results depend on the processing

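No paired analysis was possible because each group is 1 library and the result comes from no test. The members called higher or lower under the main settings all stayed so under every alternative but one, Serpina3g for IL-4 at 4 h, whose value was 0.56 against the control of the other time. That control moved most values: with it, 13 of the 36 member values changed sign and only 4 stayed within their counting interval. IL-4 at 1 h then had 3 members higher (Serpinb2 1.21, Serpina3g 1.19 and Timp1 1.13) and 1 lower (Plau, -1.16), in place of 0 and 0. IL-4 at 4 h had 1 lower (Serpinb2, -1.07) in place of 0, and Plau was higher there at 1.21 in place of Serpina3g. IL-33 at 1 h had 2 higher (Serpinb2 2.60 and Serpina3g 1.26) in place of 1, and 1 lower (Plau, -1.03) in place of 0.

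A pseudocount of 0.1 raised the members higher with IL-4 at 1 h from 0 to 1 (Timp1, 1.25), those lower in the 4 h control from 1 to 2 (Serpina3g, -1.11) and those lower between times with IL-4 from 0 to 1 (Timp1, -1.09). With the highest transcript only, IL-4 at 4 h had 1 member lower (Timp1, -1.27) in place of 0, IL-33 at 4 h had 2 higher (Serpinb2, 1.03) in place of 1, and 1 member was lower between times with IL-4 in place of 0. No filter and a filter of 5 FPKM moved none of 36 member values, which they cannot do, because a filter only sets which genes are counted. At 5 FPKM Timp1 was no longer counted, its highest level being 4.27 FPKM. The IL-33 tables' controls moved none of 9 values, and being the same control libraries at another scale they could hardly do so. A median ratio of 0 moved 2 of 81 member values, among which the differences between changes have no counting interval, and changed the sign of 4. With the highest transcript only, 71 of 81 member values stayed the same and 5 changed sign.

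Counts over all genes moved more. With a pseudocount of 0.1 the genes lower with IL-33 went from 71 to 127 at 1 h and from 149 to 324 at 4 h, and for IL-4 at 4 h 70 higher and 38 lower became 118 and 65. Genes higher in the 4 h control went from 95 to 233, those lower with IL-33 than IL-4 from 71 to 114 (1 h) and 117 to 296 (4 h), those lower between times with IL-33 from 203 to 398, and with IL-4 87 higher and 69 lower became 171 and 121. With the highest transcript only, genes lower with IL-4 went from 38 to 75 at each time, those higher in the 4 h control from 95 to 160, and those between times with IL-4 to 153 and 132. Against the control of the other time, IL-4 gave 178 and 117 at 1 h (from 50 and 38) and 128 and 152 at 4 h, and IL-33 at 1 h gave 433 and 345 (from 251 and 71). Without small RNA genes, IL-4 gave 11 and 2 at 1 h and 32 and 2 at 4 h, 30 genes were lower with IL-33 at 1 h, 50 were higher in the 4 h control, 33 were lower with IL-33 than IL-4 at 1 h, and 30 and 11 remained between times with IL-4. Counting error was widest for Timp1, at 15 to 59 estimated reads.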
